A study of Mus musculus with 8 samples.

Results

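The comparison described here set mouse testis that received DHEA together with Nb23-bi after lipopolysaccharide against testis that received lipopolysaccharide alone. It used 4 of the 8 RNA-seq libraries of the study, 2 labelled LPS+DHEA+Nb and 2 labelled LPS, and all 26414 genes with enough counts to test, of 55421 listed. All mice were male and of genotype WT; the labels say nothing of strain, age, doses, the vehicle of DHEA or the time of tissue collection. The LPS group had 1 intraperitoneal injection of lipopolysaccharide (LPS), and the LPS+DHEA+Nb group had the same injection followed 6 h later by a single intraperitoneal injection of dehydroepiandrosterone (DHEA) with Nb23-bi. Another group, LPS+DHEA, had DHEA without Nb23-bi at that time, and the CTRL group had phosphate buffered saline; each of these groups also had 2 libraries. The LPS and LPS+DHEA+Nb groups therefore differ in DHEA, in Nb23-bi and, as far as the labels say, in a second injection, and these cannot be told apart by this comparison alone. The levels in LPS+DHEA are given beside the result for that reason. The labels do not say whether the 2 libraries of a group came from separate animals, so p-values measure only the spread between these libraries. The tissue is labelled testis, although the RNA extraction text of the labels names islets. Levels are given as CPM (counts-per-million, scaled for library size). The spermatid genes Prm1 and Tnp1 stood at 2382 to 2826 and 1578 to 1912 CPM in the 4 libraries, and 14 of 18 listed epididymis genes had too few counts to test.

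LPS is a component of the outer membrane of Gram-negative bacteria. It binds CD14 and the Toll-like receptor 4 complex and activates NF-kB, and cytokines of the interleukin 6 family then act through STAT3 and the C/EBP factors on acute phase genes, which encode secreted proteins such as serum amyloids, lipocalin 2 and ceruloplasmin. In the testis, inflammation is known to lower the output of Leydig cells, the interstitial cells that make testosterone from cholesterol, while germ cells develop behind the barrier formed by Sertoli cells. DHEA is a steroid precursor that hydroxysteroid dehydrogenases convert toward androgens. Nb23-bi is named here only as the labels name it.

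Promoter sequences are shown for 5 of the genes that were lower in LPS+DHEA+Nb. Each holds a match to the C/EBP motif upstream of an annotated start near the 5′ end of the gene span. This motif is the binding site of factors that act on acute phase genes. Each line gives the 250 bases before the transcription start in RefSeq (GRCm38.p6), 5′ to 3′ on the strand of the gene, with the match in capitals.
Saa3, chr7:46715677-46715926, reverse strand: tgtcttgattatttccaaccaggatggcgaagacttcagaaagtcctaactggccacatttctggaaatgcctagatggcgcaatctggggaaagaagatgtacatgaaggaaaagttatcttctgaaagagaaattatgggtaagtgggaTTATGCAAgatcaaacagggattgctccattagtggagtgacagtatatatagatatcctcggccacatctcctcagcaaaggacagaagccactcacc
Cp, chr3:19956999-19957248, forward strand: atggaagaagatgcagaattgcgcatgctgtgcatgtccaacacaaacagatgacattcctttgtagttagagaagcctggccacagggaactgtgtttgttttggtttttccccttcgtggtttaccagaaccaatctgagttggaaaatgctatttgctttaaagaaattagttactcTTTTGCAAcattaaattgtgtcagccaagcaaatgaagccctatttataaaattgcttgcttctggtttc
Lcn2, chr2:32387740-32387989, reverse strand: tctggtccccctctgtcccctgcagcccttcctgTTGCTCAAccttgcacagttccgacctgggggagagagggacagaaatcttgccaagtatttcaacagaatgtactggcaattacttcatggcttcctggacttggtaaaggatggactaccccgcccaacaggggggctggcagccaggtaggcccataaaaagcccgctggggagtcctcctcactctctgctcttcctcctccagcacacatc
Steap4, chr5:7960222-7960471, forward strand: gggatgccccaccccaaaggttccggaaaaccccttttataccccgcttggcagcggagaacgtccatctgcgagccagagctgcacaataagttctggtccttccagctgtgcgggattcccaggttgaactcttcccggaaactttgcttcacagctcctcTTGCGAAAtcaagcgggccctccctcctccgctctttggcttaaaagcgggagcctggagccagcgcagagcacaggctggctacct
Cxcl13, chr5:95956689-95956938, forward strand: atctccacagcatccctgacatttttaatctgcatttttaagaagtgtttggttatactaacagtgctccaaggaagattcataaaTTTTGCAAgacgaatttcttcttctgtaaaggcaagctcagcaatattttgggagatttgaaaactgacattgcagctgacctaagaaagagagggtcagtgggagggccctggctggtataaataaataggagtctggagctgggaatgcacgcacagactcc
The match lies 99 to 92 bases before the start of Saa3, 70 to 63 before that of Cp, 216 to 209 before Lcn2, 87 to 80 before Steap4 and 164 to 157 before Cxcl13. Cp has another annotated start further upstream, whose window (chr3:19956804-19957103) holds no match, and the Cp match lies downstream of that start. The motif was searched as TTGCNNAA on both strands in windows of 300 bases, 250 before and 50 after each annotated start. Of the 34 genes lower in LPS+DHEA+Nb, 26 had such a window and 8 of these (30.77%) held the motif, against 12.2% of 27025 genes with a window. The other 3 were C1ra, Fth1 and H6pd, named here because they complete the count. Fth1 also holds upstream matches, at positions -129 to -122 and -58 to -51 from an annotated start. Its sequence is not shown because that start lies well inside the gene span. The C1ra match lies after the start, and those of H6pd lie across and after it. Lrg1, Serpina3n and Timp1, lower genes of the acute phase list described below, had windows that held no C/EBP match. An NF-kB motif searched by its usual consensus was in 4 of the 26 (15.38%, against 9.55%) and a STAT motif, TTCNNNGAA, in 3 (11.54%, against 9.55%). The androgen or glucocorticoid receptor half-site AGAACA was in 5 (19.23%, against 21.28%), and the cAMP response element TGACGTCA in 0 of the 26 (against 2.03%). Genes with several annotated starts have several windows and so more room for a match. These matches describe the sequence and were given no test.

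In the LPS+DHEA+Nb libraries, 45 genes differed from LPS at an adjusted p under 0.05 (0.17% of the genes tested), 34 of them lower (0.129%) and 11 higher (0.0416%). The test was edgeR's quasi-likelihood test with Benjamini-Hochberg adjustment over the 26414 genes, in 1 fit of all 8 libraries, and adjusted p-values below come from it. The lower genes included acute phase proteins, an adhesion molecule, basement membrane collagens and the desaturase Scd2; the higher genes included the stress regulator Nupr1l, the arrestin Arrb1, the lipase Lpl and the growth factor Ptn. The median fold of the lower genes was 2.76, and it ran from 1.61 to 35.9 apart from Gm6351, which had no count in LPS+DHEA+Nb. For the higher genes it ran from 1.37 to 239.8, Gm15142 aside, which had no count in LPS. The median log2 fold change over all genes tested was 0.00, with 50.4% of the genes above 0, and 1732 genes had an unadjusted p under 0.05 where 1321 would be expected from uniform p-values. Both LPS+DHEA+Nb libraries lay above both LPS libraries for 18.1% of the genes tested and below both for 18.6%, which is the background for the counts of lists given later. List counts at an unadjusted p under 0.05 have as background the 1732 of 26414 genes. DESeq2 called more genes than edgeR over all genes, and its list counts are to be read against its total, given with the alternatives below.

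**Figure D1:**
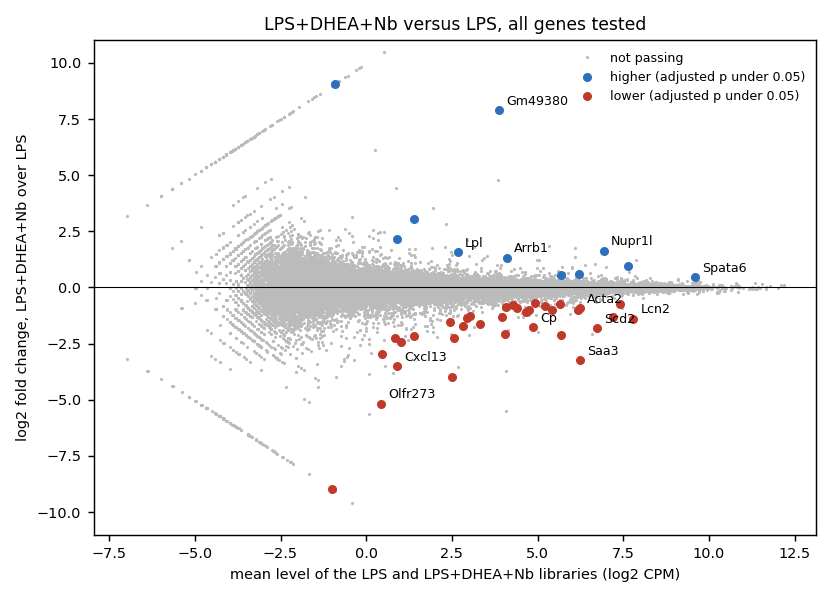
Each point is 1 of the genes tested, with the mean level of the LPS and LPS+DHEA+Nb libraries on the x axis (log2 CPM) and the log2 fold change of LPS+DHEA+Nb over LPS on the y axis; red marks the 34 lower and blue the 11 higher genes. Called genes lie across the range of levels, and the diagonal lines at the left are genes with no count in 1 group, whose fold depends on the prior count.

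The 4 libraries held between 61830282 and 63813301 counts. Across the genes tested, which are not independent replicates, the correlation of log2 CPM was 0.9700 between the LPS libraries, 0.9695 between the LPS+DHEA+Nb libraries and 0.9668 to 0.9696 between libraries of the 2 groups. The 13 mitochondrially encoded genes, none of which passed edgeR's test or DESeq2's (6 had an unadjusted p under 0.05), were all higher in both LPS+DHEA+Nb libraries than in both LPS libraries (median log2 fold change 0.24), and the mitochondrial share of counts was 0.89% and 0.981% in LPS and 1.022% and 1.099% in LPS+DHEA+Nb. With any 1 of the 8 libraries left out in turn, 21 of the 45 genes kept the call each time and 24 lost it at least once. When a group is left with 1 library, that library is assumed to vary like the other groups.

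Among the gene lists, that of acute phase and injury proteins held the most genes that fell. Of the 34 lower genes, 19 stood in no list, and the lists were chosen with earlier results of these data known. Of 29 listed, 22 could be tested, 7 fell and none rose, and the median log2 fold change was -1.70, against 0.00 for all genes. DESeq2 called 11 of the 22, and 13 had an unadjusted p under 0.05. Both LPS+DHEA+Nb libraries lay below both LPS libraries for 16 of the 22. The summed level of the list was 934.6 and 1012 CPM in LPS, 495.1 and 438.2 in LPS+DHEA+Nb, 725.5 and 766.2 in LPS+DHEA and 426.0 and 463.2 in CTRL. In tissue RNA of this kind, fewer cells of a type and less RNA per cell cannot be told apart.

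Saa3 (chr7:46711998-46715700, reverse strand), a serum amyloid made outside the liver by macrophages and stromal cells, stood at 114 and 161 CPM in LPS and 16.6 and 12.3 in LPS+DHEA+Nb. It was at 94.0 and 98.1 CPM in LPS+DHEA and 0.895 and 1.49 in CTRL. The LPS+DHEA+Nb level was thus far below LPS and LPS+DHEA but still above CTRL, with no overlap among these groups. The log2 fold change from LPS was -3.25 (SE 0.27, adjusted p = 0.0182), the difference from LPS+DHEA was -2.73 (adjusted p = 0.0534) and the difference from CTRL was 3.602 (adjusted p = 0.0656).

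Lcn2 (chr2:32384633-32388252, reverse strand) encodes lipocalin 2, which binds the siderophores that bacteria use to take up iron. Its levels were 327 and 314 CPM in LPS, 139.9 and 104 in LPS+DHEA+Nb, 224 and 250.1 in LPS+DHEA and 127 and 125 in CTRL. It fell by 1.39 on the log2 scale from LPS (SE 0.12, adjusted p = 0.00344) and was also lower than in LPS+DHEA (log2 difference -0.96, adjusted p = 0.0365). The LPS+DHEA+Nb libraries straddled the CTRL libraries. Lrg1, a secreted leucine-rich glycoprotein that acts on vessel growth, was at 31.5 and 22.2 CPM in LPS, 6.42 and 6.31 in LPS+DHEA+Nb, 17.4 and 16.3 in LPS+DHEA and 4.33 and 5.00 in CTRL. Its log2 fold change was -2.08 from LPS (SE 0.17, adjusted p = 0.00077) and -1.40 from LPS+DHEA (adjusted p = 0.0172). For both genes LPS+DHEA lay between LPS and LPS+DHEA+Nb, with no overlap among these groups.

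Serpina3n, a secreted inhibitor of serine proteases, went from 74.8 and 92.2 CPM in LPS to 22.7 and 15.4 in LPS+DHEA+Nb (log2 fold change -2.13, SE 0.24, adjusted p = 0.0404), with 54.2 and 50.2 in LPS+DHEA and 4.70 and 6.91 in CTRL. Timp1, an inhibitor of matrix metalloproteinases, went from 10.6 and 10.99 CPM to 3.97 and 2.57 (-1.73, SE 0.24, adjusted p = 0.018), with 7.50 and 9.50 in LPS+DHEA and 0.863 and 1.09 in CTRL. For both genes the LPS+DHEA+Nb libraries lay between CTRL and LPS and overlapped neither. Among listed members that did not pass, Saa1 was at 2.82 and 3.31 CPM in LPS and 0.928 and 0.994 in LPS+DHEA+Nb (log2 fold change -1.67, adjusted p = 0.0866). Saa2 had 60 and 75 counts in LPS and none in LPS+DHEA+Nb (adjusted p = 0.0768). The haptoglobin gene Hp was at 16.2 and 46.0 CPM in LPS and 3.21 and 1.58 in LPS+DHEA+Nb, but its LPS libraries were so far apart that the adjusted p was 0.691. The metallothioneins Mt1 and Mt2, metal-binding proteins often counted among stress genes, showed log2 fold changes of -0.05 and 0.00.

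The call of Saa3 was lost without either LPS+DHEA library or either LPS+DHEA+Nb library (adjusted p 0.0523 to 0.108). That of Serpina3n was lost without either LPS or either LPS+DHEA library (0.0689 to 0.141), and that of Timp1 without LPS replicate 2 or LPS+DHEA+Nb replicate 2 (0.0599 and 0.07). Lcn2 and Lrg1 kept theirs whichever library was left out.

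Markers of immune cells bear on the same list and are given here as measured. The 11 neutrophil genes tested, of which edgeR called 0, DESeq2 called 1 and 3 had an unadjusted p under 0.05, had a median log2 fold change of -2.26, or -2.07 with the gene that had no count in LPS+DHEA+Nb set to its bound. Their summed level was low, 13.2 and 10.5 CPM in LPS, 5.19 and 7.08 in LPS+DHEA+Nb and 5.02 and 4.39 in CTRL. S100a8, a calprotectin subunit abundant in neutrophils, had 81 and 49 counts in LPS, 2 and 6 in LPS+DHEA+Nb and none in CTRL. Its adjusted p against LPS was 0.154, and 0.00528 in DESeq2. The neutrophil genes Ly6g, Elane, Camp, Ltf and Mmp8 had too few counts to test. The 26 monocyte and macrophage genes summed to 357.8 and 344.3 CPM in LPS and 360.6 and 352.3 in LPS+DHEA+Nb, with a median log2 fold change of -0.03. The part of cell numbers in the acute phase result was not tested.

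**Figure D2:**
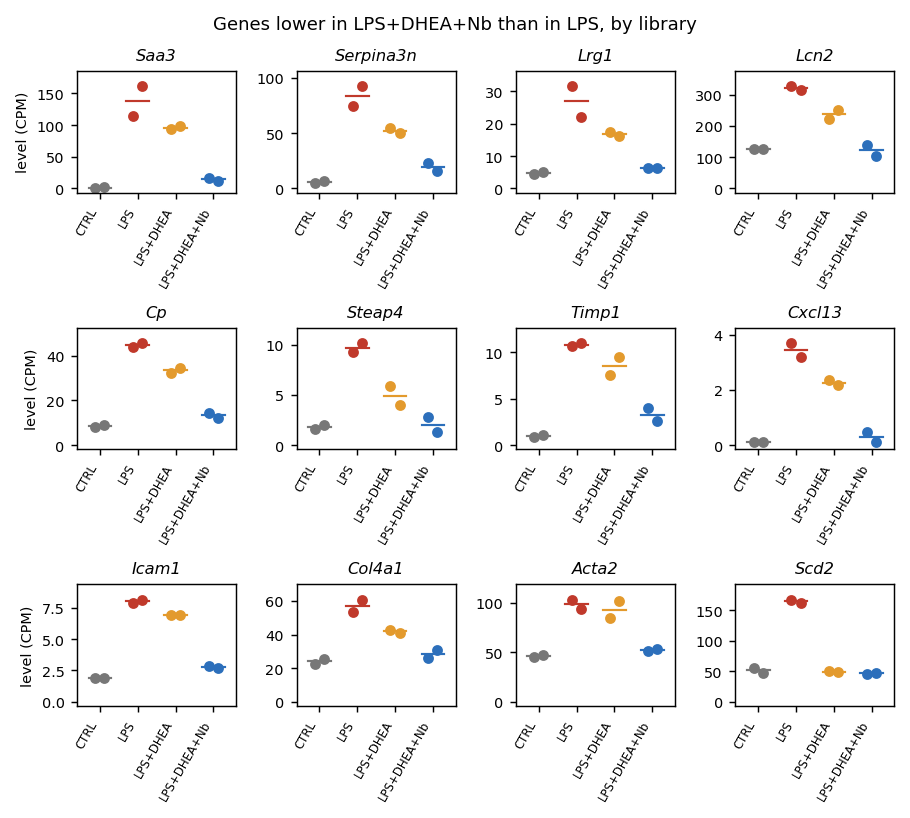
Level in CPM (y axis, from 0) of 12 genes that were lower in LPS+DHEA+Nb than in LPS, for the 2 libraries (points) and mean (line) of each of the 4 groups. Saa3, Serpina3n and Timp1 stay above CTRL in LPS+DHEA+Nb, whereas Scd2 is as low in LPS+DHEA (49.95 and 48.6 CPM) as in LPS+DHEA+Nb (46.1 and 47.2).

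Genes of iron and copper handling formed a second set with several lower members. Of 27 tested, 4 fell and none rose, and these were Cp, Fth1, Steap4 and Lcn2, of which all but Fth1 also stand in the acute phase list; the median of the 27 was -0.06. Cp (chr3:19957054-20009145, forward strand) encodes ceruloplasmin, the copper-binding ferroxidase. It was at 43.9 and 45.7 CPM in LPS, 14.3 and 12.2 in LPS+DHEA+Nb, 32.2 and 34.6 in LPS+DHEA and 8.21 and 9.03 in CTRL. The fall was 1.76 on the log2 scale (log2 fold change -1.76, SE 0.12, adjusted p = 8.67e-05), and Cp was also lower than in LPS+DHEA (-1.34, adjusted p = 0.00264). All 4 groups were separate, with LPS+DHEA+Nb nearest to CTRL.

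Steap4, a metalloreductase of iron and copper ions, stood at 9.23 and 10.2 CPM in LPS and 2.80 and 1.26 in LPS+DHEA+Nb (log2 fold change -2.25, SE 0.35, adjusted p = 0.0439). Its LPS+DHEA+Nb libraries spanned the CTRL values of 1.61 and 2.02, and LPS+DHEA was at 5.84 and 4.01. Fth1, the heavy chain of ferritin, which stores iron, was at 240.2 and 188 CPM in LPS, 134 and 122 in LPS+DHEA+Nb, 176 and 183 in LPS+DHEA and 121 and 109 in CTRL (log2 difference from LPS -0.75, SE 0.11, adjusted p = 0.0289). The ferritin light chain Ftl1 and the transferrin receptor Tfrc had log2 fold changes of 0.13 and -0.01 and did not pass. Ncoa4, the receptor that delivers ferritin for degradation, was at 60.9 and 60.6 CPM in LPS and 60.7 and 62.3 in LPS+DHEA+Nb, below the 123 and 148 of CTRL (difference from CTRL -1.14, adjusted p = 0.00209). It is a gene that differed from CTRL in LPS+DHEA+Nb and not from LPS. The call of Steap4 was lost without any 1 library other than LPS+DHEA+Nb replicate 1 (adjusted p 0.0598 to 0.183), and that of Fth1 without LPS replicate 1, either LPS+DHEA library or either LPS+DHEA+Nb library (0.0503 to 0.161). Cp kept its call under each alternative run.

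Among 26 inflammatory cytokines and chemokines tested, 1 fell and none rose in edgeR, DESeq2 called 4 and 10 had an unadjusted p under 0.05. The median log2 fold change was -0.63, or -0.61 with the gene at 0 set to its bound. Both LPS+DHEA+Nb libraries were below both LPS libraries for 16 of the 26. Cxcl13, a chemokine that attracts B cells, was at 3.70 and 3.18 CPM in LPS, 0.472 and 0.126 in LPS+DHEA+Nb, 2.35 and 2.17 in LPS+DHEA and 0.0959 and 0.125 in CTRL. The log2 fold change was -3.52 (SE 0.49, adjusted p = 0.0182), and without LPS replicate 1 the adjusted p was 0.0503. Other chemokines were low in all libraries. The neutrophil attractant Cxcl1 was at 1.24 and 1.09 CPM in LPS and 0.142 and 0.0946 in LPS+DHEA+Nb (adjusted p = 0.154, and 0.00764 in DESeq2). Ccl5, which attracts T cells and monocytes, was at 2.90 and 4.09 and at 1.29 and 0.694 (adjusted p = 0.215, and 0.0156 in DESeq2). Tnf was between 0.0944 and 0.173 CPM in these 4 libraries, and Il6 had at most 5 counts in any of them and was not tested.

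Of 23 genes of Toll-like receptor 4 signalling, edgeR called 0, DESeq2 called 1 and 2 had an unadjusted p under 0.05; their median was -0.17. The receptor Tlr4 itself was at 0.661 and 0.352 CPM in LPS and 0.598 and 0.237 in LPS+DHEA+Nb, overlapping ranges (adjusted p = 0.989). Its co-receptor Cd14 was at 4.17 and 3.98 and at 1.68 and 0.978 (log2 fold change -1.61, adjusted p = 0.154, and 0.00562 in DESeq2). Of 27 NF-kB subunits, inhibitors and targets, Icam1 alone passed edgeR's test, while DESeq2 called 4 and 8 had an unadjusted p under 0.05. Icam1 (chr9:21015985-21028817, forward strand), the adhesion molecule to which leukocytes bind on the vessel wall, was at 7.92 and 8.17 CPM in LPS, 2.85 and 2.70 in LPS+DHEA+Nb, 6.90 and 6.93 in LPS+DHEA and 1.87 and 1.92 in CTRL. The log2 fold change was -1.54 from LPS (SE 0.18, adjusted p = 0.006) and -1.32 from LPS+DHEA (adjusted p = 0.0311). Libraries of each group lay close together and the 4 groups did not overlap. The 20 endothelial marker genes, with 0 called by edgeR or DESeq2 and 5 at an unadjusted p under 0.05, summed to 107 and 119 CPM in LPS and 98.6 and 99.5 in LPS+DHEA+Nb; the part of endothelial cells in the Icam1 result was not tested.

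In the interleukin 6, STAT3 and SOCS list, 0 of 22 genes were called by edgeR and 3 by DESeq2, and 8 had an unadjusted p under 0.05 (median -0.35). Closest to the threshold was Cebpd, a C/EBP factor of the acute phase response, at 7.21 and 9.20 CPM in LPS, 3.82 and 3.03 in LPS+DHEA+Nb and 3.26 and 3.56 in CTRL (log2 difference from LPS -1.26, SE 0.22, adjusted p = 0.0698). Cebpd passed in DESeq2 (adjusted p = 0.00063) and in limma-voom (0.044). The feedback inhibitor Socs3 was at 4.68 and 6.46 CPM in LPS and 2.33 and 1.58 in LPS+DHEA+Nb (-1.51, adjusted p = 0.115, and 0.00346 in DESeq2). Of 24 complement genes, edgeR called 1, DESeq2 called 5 and 7 had an unadjusted p under 0.05. C1ra, a protease of the first component, fell from 25.5 and 29.4 CPM to 16.1 and 12.8 (log2 fold change -0.93, SE 0.15, adjusted p = 0.0424), with 10.1 and 8.36 in CTRL. Its partner protease C1s1 was at 27.0 and 36.8 CPM in LPS and 18.7 and 15.8 in LPS+DHEA+Nb (-0.88, adjusted p = 0.0625, and 5.7e-05 in DESeq2). Complement C3 was at 135 and 176 CPM in LPS and at 53.0 and 21.9 in LPS+DHEA+Nb (-2.05), but its LPS+DHEA+Nb libraries lay far apart and the adjusted p was 0.498. The call of C1ra was lost without LPS replicate 2, either LPS+DHEA library or LPS+DHEA+Nb replicate 2 (adjusted p 0.0834 to 0.219).

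MHC class I and interferon-stimulated genes were mostly lower in LPS+DHEA+Nb, but no single gene passed edgeR's test. Of 20 MHC class I and antigen processing genes, 0 were called by edgeR and 5 by DESeq2, 8 had an unadjusted p under 0.05, 19 had a negative log2 fold change and 16 had both LPS+DHEA+Nb libraries below both LPS libraries (median -0.60). Their summed level was 439.6 and 475.9 CPM in LPS, 340.8 and 296.7 in LPS+DHEA+Nb, 434.7 and 388.0 in LPS+DHEA and 267.7 and 273.4 in CTRL. H2-D1, a classical class I heavy chain, was at 80.9 and 90.1 CPM in LPS and 53.7 and 39.9 in LPS+DHEA+Nb (-0.87, SE 0.14, adjusted p = 0.0569), and it passed under several alternatives, among them without LPS+DHEA+Nb replicate 1 (adjusted p = 0.00587). Reads of class I genes can be shared between near-identical copies, so values of single members are uncertain. Of 50 interferon-stimulated genes, 0 were called by edgeR and 2 by DESeq2, 9 had an unadjusted p under 0.05, 42 had a negative log2 fold change and 29 had both libraries below (median -0.44). The nearest by p was Parp9, at 4.05 and 4.59 CPM in LPS and 2.28 and 1.91 in LPS+DHEA+Nb (adjusted p = 0.21). The 2 CTRL libraries differed in this list, with sums of 236.9 and 336.6 CPM, against 358.9 and 379.4 in LPS and 340.4 and 300.6 in LPS+DHEA+Nb. Ifitm2, an interferon-induced membrane protein outside these lists, fell from 22.9 and 21.6 CPM to 9.49 and 8.50 (log2 fold change -1.31, SE 0.13, adjusted p = 0.0029), with 17.6 and 17.1 in LPS+DHEA and 7.82 and 8.86 in CTRL; it was chosen for mention after its values were seen.

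**Figure D3:**
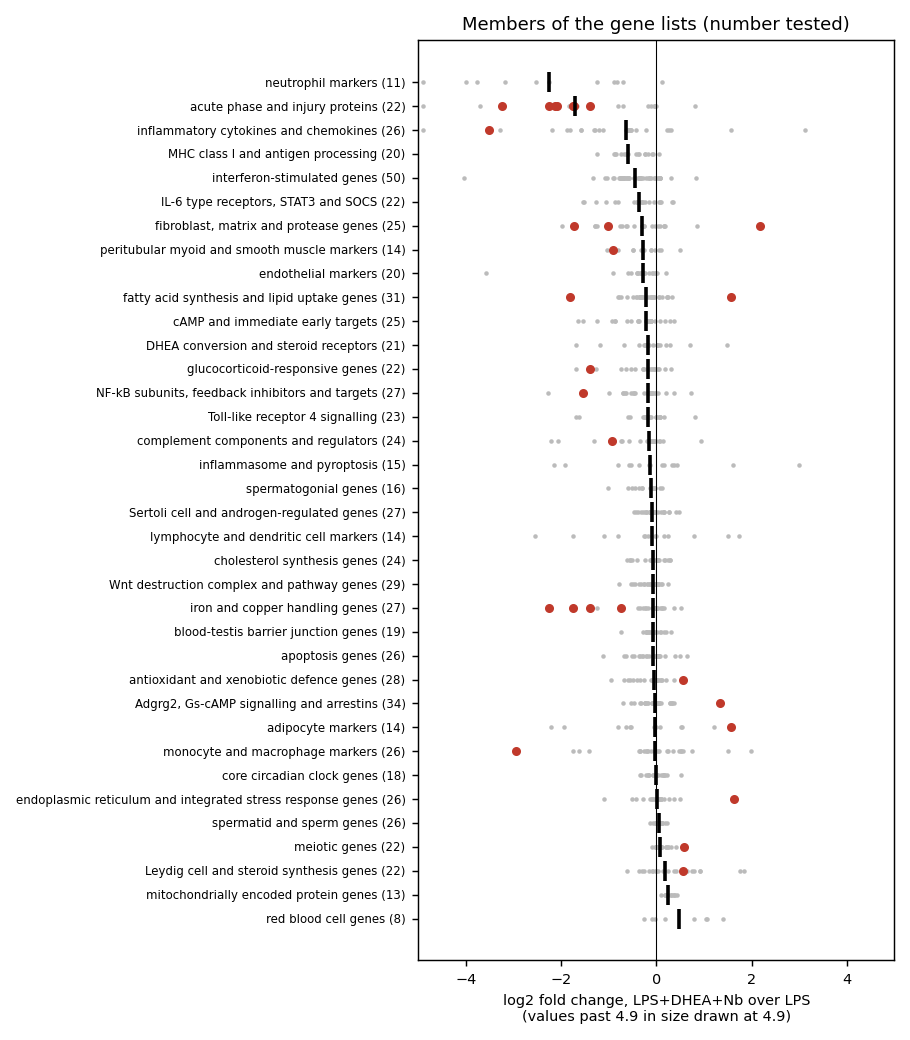
Log2 fold change of LPS+DHEA+Nb over LPS (x axis) for each tested member of 36 gene lists (rows, with the number tested in brackets); red points passed the test, grey points did not, and the black bar is the list median. Acute phase genes hold 7 red points and a median of -1.70, whereas the medians of spermatid and meiotic lists lie at 0.05 and 0.08.

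Genes of the matrix and of contractile cells included several that fell. Col4a1 and Col4a2 encode the chains of type IV collagen, the main collagen of basement membranes such as that around the seminiferous tubules, and lie head to head at chr8:11198423-11312826 (reverse strand) and chr8:11312805-11449287 (forward strand), with spans that overlap at their ends. Col4a1 was at 53.2 and 60.8 CPM in LPS, 25.8 and 30.8 in LPS+DHEA+Nb, 42.7 and 41.1 in LPS+DHEA and 22.5 and 25.6 in CTRL (log2 difference from LPS -1.01, SE 0.12, adjusted p = 0.006). Col4a2 was at 45.5 and 49.9 CPM in LPS, 26.4 and 26.9 in LPS+DHEA+Nb, 38.0 and 40.2 in LPS+DHEA and 24.4 and 27.1 in CTRL (-0.84, SE 0.10, adjusted p = 0.006). Both genes had LPS+DHEA+Nb libraries close to CTRL, and neither difference from LPS+DHEA passed (adjusted p = 0.249 and 0.121). Tgm2, a transglutaminase that crosslinks matrix proteins, fell from 33.0 and 36.1 CPM to 17.2 and 14.7 (-1.11, SE 0.12, adjusted p = 0.0038), with 15.6 and 16.4 in CTRL. These 3 genes were chosen for mention after their values were seen; each kept its call whichever library was left out.

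Of 25 fibroblast, matrix and protease genes on the list, Timp1 and Igfbp4 fell and Ptn rose (median -0.30). DESeq2 called 7 of the 25, and 12 had an unadjusted p under 0.05. Igfbp4, a protein that binds insulin-like growth factors, was at 33.9 and 37.8 CPM in LPS, 19.6 and 16.0 in LPS+DHEA+Nb, 24.6 and 21.6 in LPS+DHEA and 14.1 and 16.1 in CTRL (log2 difference from LPS -1.01, SE 0.13, adjusted p = 0.0163). Ccn5, a secreted matricellular protein, fell from 14.9 and 14.99 CPM to 5.74 and 4.01 (-1.62, SE 0.19, adjusted p = 0.00655), with 9.76 and 11.3 in LPS+DHEA and 3.56 and 3.11 in CTRL. The matrix crosslinking enzyme Lox was at 4.12 and 8.27 CPM in LPS and 1.79 and 1.34 in LPS+DHEA+Nb (-1.98, adjusted p = 0.0575). The fibrillar collagen genes did not pass: Col1a1 was at 24.3 and 52.4 CPM in LPS and 30.3 and 19.7 in LPS+DHEA+Nb, overlapping ranges, and Col3a1 at 33.9 and 74.3 and at 51.7 and 26.8. In both, LPS replicate 2 was the high library. Igfbp4 lost its call without LPS replicate 2 or LPS+DHEA+Nb replicate 2 (adjusted p 0.069 and 0.0725), and Lox passed under several alternatives, among them without LPS replicate 1 (adjusted p = 0.00852).

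Acta2 (chr19:34241090-34255590, reverse strand), the smooth muscle actin of vessels and of the peritubular cells around the tubules, stood at 103 and 93.6 CPM in LPS, 51.1 and 53.0 in LPS+DHEA+Nb, 84.0 and 102 in LPS+DHEA and 45.3 and 46.7 in CTRL. It fell by 0.92 on the log2 scale from LPS (SE 0.10, adjusted p = 0.00443) and was lower than in LPS+DHEA (log2 difference -0.84, adjusted p = 0.0172). LPS and LPS+DHEA overlapped, and both lay above LPS+DHEA+Nb. It was the 1 member called by edgeR of 14 smooth muscle genes, whose median was -0.28. DESeq2 called 2 of the 14, and 8 had an unadjusted p under 0.05. Myh11, the smooth muscle myosin heavy chain, was at 37.6 and 49.1 CPM in LPS and 32.7 and 29.1 in LPS+DHEA+Nb (-0.49, adjusted p = 0.373), and Actg2 had a log2 fold change of -0.03. The summed level of the list was 631.5 and 608.4 CPM in LPS and 550.3 and 525.4 in LPS+DHEA+Nb.

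Lipid genes moved in both directions. Of 31 genes of fatty acid synthesis and lipid uptake, Scd2 fell and Lpl rose, and the median was -0.21. DESeq2 called 3 of the 31, and 6 had an unadjusted p under 0.05. Scd2 (chr19:44293674-44306864, forward strand), a stearoyl-CoA desaturase that introduces a double bond into saturated fatty acids, was at 168 and 162 CPM in LPS and 46.1 and 47.2 in LPS+DHEA+Nb. The levels were 49.95 and 48.6 CPM in LPS+DHEA and 55.7 and 47.8 in CTRL, so that LPS stood alone. The log2 fold change from LPS was -1.82 (SE 0.09, adjusted p = 8.34e-06), while the difference between LPS+DHEA+Nb and LPS+DHEA was -0.08 (SE 0.09, adjusted p = 1). Its neighbour and paralog Scd1 was at 6.94 and 10.2 CPM in LPS and 7.66 and 7.48 in LPS+DHEA+Nb, and Fasn, the fatty acid synthase, differed by -0.21 on the log2 scale (adjusted p = 0.783).

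Lpl (chr8:68880491-68907448, forward strand), the lipase that releases fatty acids from circulating triglycerides, was at 3.35 and 3.12 CPM in LPS and 9.71 and 9.37 in LPS+DHEA+Nb. It was at 3.599 and 2.70 CPM in LPS+DHEA and 3.596 and 4.88 in CTRL, so LPS+DHEA+Nb was the group that stood apart. The log2 fold change was 1.56 from LPS (SE 0.22, adjusted p = 0.0194) and 1.60 from LPS+DHEA (adjusted p = 0.0322), and 1.17 from CTRL, which did not pass (adjusted p = 0.231). Lpl also stands in a list of 14 adipocyte markers, which summed to 661.4 and 701.3 CPM in LPS and 685.7 and 685.1 in LPS+DHEA+Nb. The call of Lpl against LPS was lost without any 1 of the 4 libraries compared (adjusted p 0.0544 to 0.115).

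**Figure D4:**
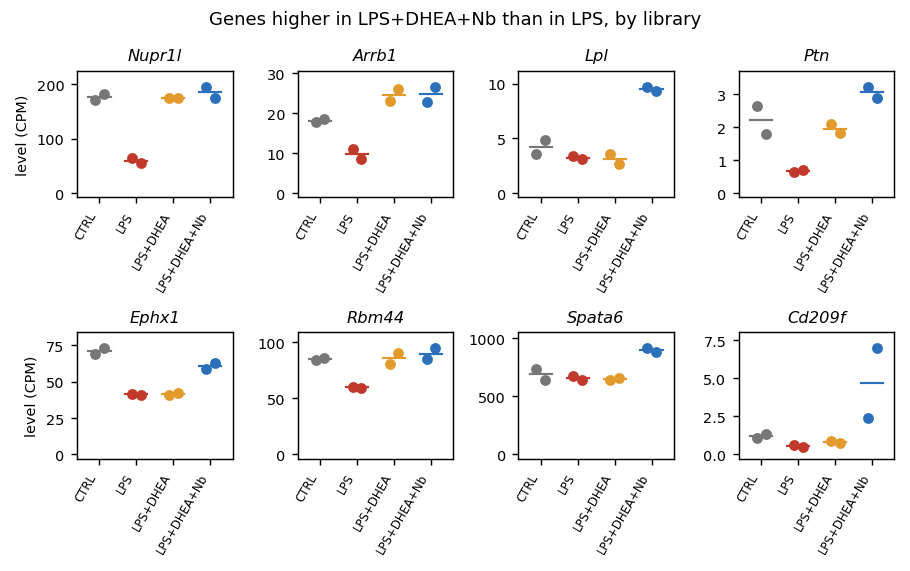
Level in CPM (y axis, from 0) of 8 genes that were higher in LPS+DHEA+Nb than in LPS, for the 2 libraries (points) and mean (line) of each of the 4 groups. Nupr1l, Arrb1 and Rbm44 are also high in LPS+DHEA, whereas Lpl and Spata6 are highest in LPS+DHEA+Nb and lower in each of the other groups.

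Nupr1l (chr5:129908540-129913789, forward strand), a paralog of the stress-induced transcriptional regulator Nupr1, had the smallest p among the genes that rose. It was at 63.6 and 55.2 CPM in LPS and 195 and 175 in LPS+DHEA+Nb (log2 fold change 1.64, SE 0.09, adjusted p = 1.12e-05). LPS+DHEA stood at 176 and 175 CPM and CTRL at 171 and 182, and LPS was the low group. Nupr1 itself was at 1.31 and 1.98 CPM in LPS and 0.818 and 0.726 in LPS+DHEA+Nb (adjusted p = 0.701). No other member of 26 stress response genes passed, among them Atf4 (-0.08) and Ddit3 (0.01), the main transcription factors of the integrated stress response, and the list median was 0.01.

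Arrb1 (chr7:99535466-99606771, forward strand) encodes beta-arrestin 1, an adaptor that binds activated G protein-coupled receptors and ends or redirects their signals. It was at 11.2 and 8.53 CPM in LPS, 22.9 and 26.6 in LPS+DHEA+Nb, 23.2 and 26.1 in LPS+DHEA and 17.9 and 18.5 in CTRL (log2 difference from LPS 1.33, SE 0.15, adjusted p = 0.0045; difference from LPS+DHEA 0.01, adjusted p = 1). LPS was low, and both groups with DHEA were above CTRL. The difference of LPS+DHEA+Nb from CTRL did not pass (log2 difference 0.44, SE 0.14). Arrb1 was the 1 called gene of 34 of Gs and cAMP signalling, whose median was -0.04. Arrb2 stood at 5.12 and 5.42 CPM in LPS and 5.38 and 5.44 in LPS+DHEA+Nb. Adgrg2, an adhesion G protein-coupled receptor that couples to Gs, was scarce, at 0.457 and 1.42 CPM in LPS and 0.598 and 0.694 in LPS+DHEA+Nb (29 and 89 counts, and 38 and 44), and a difference was not detectable at this depth (log2 fold change -0.54, SE 0.84, adjusted p = 0.976).

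Further genes that rose included a growth factor, a detoxifying enzyme and genes of male germ cells. Ptn, pleiotrophin, a heparin-binding growth factor, was at 0.645 and 0.704 CPM in LPS, 3.23 and 2.90 in LPS+DHEA+Nb, 2.10 and 1.81 in LPS+DHEA and 2.65 and 1.80 in CTRL (log2 difference from LPS 2.18, SE 0.30, adjusted p = 0.0182). Ephx1, the microsomal epoxide hydrolase, was at 41.7 and 40.9 CPM in LPS, 58.7 and 62.6 in LPS+DHEA+Nb, 40.8 and 42.4 in LPS+DHEA and 69.4 and 73.0 in CTRL. Its difference was 0.55 from LPS (SE 0.08, adjusted p = 0.028) and 0.54 from LPS+DHEA (adjusted p = 0.0491), and the LPS+DHEA+Nb libraries lay between those groups and CTRL. Rbm44, an RNA-binding protein of the bridges between germ cells, was at 60.1 and 59.2 CPM in LPS, 84.9 and 94.5 in LPS+DHEA+Nb, 80.8 and 90.7 in LPS+DHEA and 84.4 and 85.7 in CTRL (0.59, SE 0.09, adjusted p = 0.0243). Spata6, needed to form the connecting piece of sperm, was at 673 and 643 CPM in LPS and 914.5 and 883 in LPS+DHEA+Nb (0.45, SE 0.07, adjusted p = 0.0351), and LPS+DHEA at 643 and 663 and CTRL at 738 and 644 stayed with LPS. These 4 calls were lost without LPS replicate 1 or 2 (adjusted p 0.0526 to 0.225 over all lost settings). They were also lost without LPS+DHEA+Nb replicate 1 for Ptn and Spata6, replicate 2 for Ephx1, Rbm44 and Spata6, and either LPS+DHEA library for Spata6.

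DESeq2 called 4 of 26 monocyte and macrophage genes, and 7 had an unadjusted p under 0.05. In edgeR, 1 fell and none rose. That gene, Cd163, the haemoglobin scavenger receptor of resident macrophages, was at 2.91 and 2.00 CPM in LPS, 0.205 and 0.426 in LPS+DHEA+Nb, 0.704 and 0.883 in LPS+DHEA and 1.502 and 2.41 in CTRL. Both LPS+DHEA+Nb libraries were below both CTRL libraries too, but that difference did not pass (log2 fold change from LPS -2.95, SE 0.45, adjusted p = 0.0318; from CTRL -2.63, adjusted p = 0.156). Cd209f, a C-type lectin of macrophages that is not on that list, rose from 0.630 and 0.496 CPM to 2.41 and 6.96 (3.05, SE 0.48, adjusted p = 0.0378), with LPS+DHEA+Nb replicate 2 far above replicate 1. The chemokine receptor Cx3cr1 was at 1.35 and 1.10 CPM in LPS, 3.56 and 3.47 in LPS+DHEA+Nb and 2.88 and 3.39 in CTRL (1.51, SE 0.29, adjusted p = 0.11, and 0.00831 in DESeq2). The scavenger receptor Marco was at 6.19 and 4.22 CPM in LPS and 2.60 and 6.97 in LPS+DHEA+Nb, with 0.304 and 0.219 in CTRL. Other macrophage genes went in both directions. Adgre1, a surface antigen of mature macrophages, was at 6.06 and 9.44 CPM in LPS and 8.36 and 13.9 in LPS+DHEA+Nb. The mannose receptor Mrc1 was at 22.3 and 23.2 and at 21.6 and 18.0. Lyz2 was at 22.01 and 26.18 CPM in LPS and 31.36 and 37.33 in LPS+DHEA+Nb. Its difference did not pass (log2 fold change 0.5114, SE 0.1529, adjusted p = 0.4481). Both LPS+DHEA+Nb libraries lay above both LPS libraries for 7 of the 26 genes and below both for 6. Csf2rb, the shared beta chain of the GM-CSF, interleukin 3 and interleukin 5 receptors, fell from 2.44 and 3.46 CPM to 0.677 and 0.568 (-2.24, SE 0.36, adjusted p = 0.0427), with 0.847 and 0.594 in CTRL.

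The call of Cd163 was lost without LPS replicate 1, either LPS+DHEA library or LPS+DHEA+Nb replicate 1 (adjusted p 0.0539 to 0.111). Cd209f lost its call without any 1 library other than LPS+DHEA+Nb replicate 1 (0.0678 to 0.277), and Csf2rb without any 1 of LPS replicate 2, the LPS+DHEA libraries and the LPS+DHEA+Nb libraries (0.0682 to 0.26).

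Of 22 Leydig cell genes tested, 15 had a positive log2 fold change in LPS+DHEA+Nb versus LPS, but Ephx1 alone passed edgeR's test. DESeq2 called 5 of the 22, and 9 had an unadjusted p under 0.05. The median log2 fold change was 0.19, and both LPS+DHEA+Nb libraries were above both LPS libraries for 10 of the 22, against the background of 18.1%. The summed level of the list was 1248 and 1246 CPM in LPS, 1532 and 1399 in LPS+DHEA+Nb, 1197 and 1161 in LPS+DHEA and 1457 and 1643 in CTRL. Cyp17a1, the enzyme that makes DHEA and androstenedione from pregnenolone and progesterone, was at 44.2 and 17.4 CPM in LPS, 112.7 and 96.3 in LPS+DHEA+Nb, 27.7 and 25.3 in LPS+DHEA and 106 and 156 in CTRL. LPS+DHEA+Nb lay above LPS and LPS+DHEA and overlapped CTRL, but the LPS libraries were far apart and the log2 fold change of 1.76 did not pass (SE 0.51, adjusted p = 0.659). Hsd3b1, which converts DHEA and pregnenolone to their 3-keto products, was at 12.2 and 22.9 CPM in LPS, 66.6 and 59.7 in LPS+DHEA+Nb, 28.6 and 25.1 in LPS+DHEA and 67.3 and 50.8 in CTRL (1.85, SE 0.32, adjusted p = 0.246).

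Both genes passed in other fits. Cyp17a1 had an adjusted p of 0.0326 without LPS replicate 1 and of 0.0442 in DESeq2, and Hsd3b1 had 0.00839 and 0.000372 without LPS replicate 1 and 2 and 6.12e-05 in DESeq2. The side-chain cleavage enzyme Cyp11a1 was at 60.6 and 28.8 CPM in LPS and 96.3 and 72.9 in LPS+DHEA+Nb (0.92, adjusted p = 0.828). The luteinizing hormone receptor gene Lhcgr was at 3.73 and 3.42 CPM in LPS and 6.80 and 6.81 in LPS+DHEA+Nb (0.93, SE 0.22, adjusted p = 0.247; 0.0498 in DESeq2). Star, which moves cholesterol into mitochondria, was at 34.3 and 29.2 CPM in LPS and 62.7 and 36.1 in LPS+DHEA+Nb (0.64, adjusted p = 0.875). Insl3, the Leydig cell hormone, was at 544 and 575 and at 559 and 506 CPM, overlapping levels with a log2 fold change of -0.07 (SE 0.07), and the Leydig regulator Nr5a1 at 38.6 and 38.0 and at 32.4 and 29.7. The log2 fold change of Nr5a1 was -0.30 and did not pass.

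**Figure D5:**
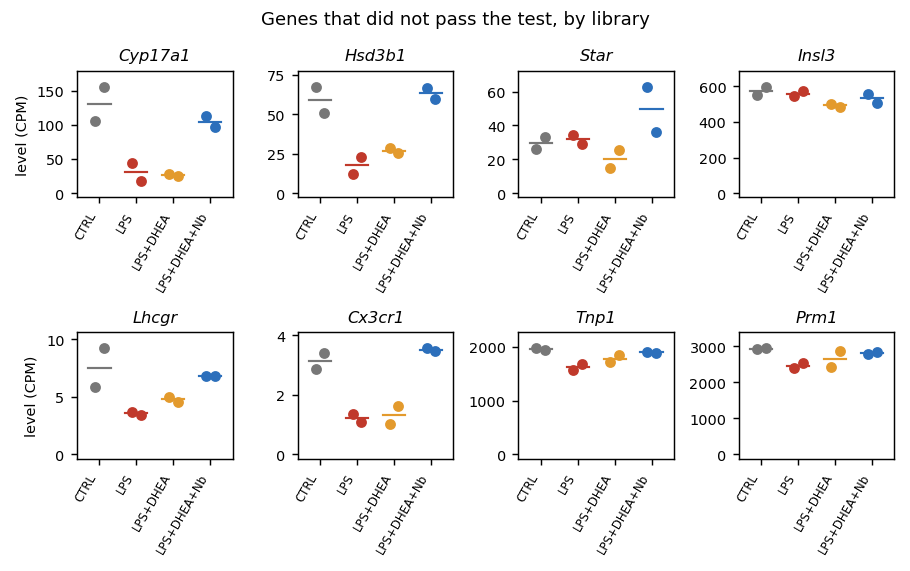
Level in CPM (y axis, from 0) of 8 genes that did not pass in LPS+DHEA+Nb versus LPS, for the 2 libraries (points) and mean (line) of each of the 4 groups. For Cyp17a1 and Hsd3b1, LPS+DHEA+Nb lies above LPS and overlaps CTRL, with LPS libraries far apart (44.2 and 17.4 CPM for Cyp17a1); for Insl3, LPS and LPS+DHEA+Nb overlap.

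Germ and Sertoli cell genes changed little. Of 26 spermatid and sperm genes, 0 were called by edgeR or DESeq2 and 2 had an unadjusted p under 0.05; 21 had a positive log2 fold change, none lay beyond 0.22 in size, and the median was 0.05. Tnp1, the transition protein that precedes protamines in sperm chromatin, was at 1578 and 1675 CPM in LPS and 1912 and 1881 in LPS+DHEA+Nb (0.22, SE 0.06, adjusted p = 0.284), and the protamine Prm1 at 2382 and 2523 and at 2773 and 2826 (0.19, adjusted p = 0.659). The 22 meiotic genes, of which Rbm44 passed, had a median of 0.08, with both LPS+DHEA+Nb libraries above for 11 of them. The 27 Sertoli cell genes (median -0.10), 19 genes of the blood-testis barrier (-0.06) and 16 spermatogonial genes (-0.12) held 0 calls by edgeR and 0, 0 and 1 by DESeq2, with 6, 2 and 1 genes at an unadjusted p under 0.05. Rhox5, an androgen-responsive homeobox gene of Sertoli cells, was at 7.59 and 7.52 CPM in LPS and 11.1 and 9.76 in LPS+DHEA+Nb (0.47, SE 0.20, adjusted p = 0.735). Among 21 genes of DHEA conversion and steroid receptors, 0 were called by edgeR or DESeq2 and 2 had an unadjusted p under 0.05. Sult1e1, an estrogen sulfotransferase, was at 4.63 and 4.96 CPM in LPS and 7.24 and 8.52 in LPS+DHEA+Nb (0.72, SE 0.19, adjusted p = 0.316).

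Several called genes share their position with other genes, and the labels do not say how the counting treated overlaps and strand. 1700027A15Rik (chr1:72984844-73025507, forward strand) is a noncoding gene whose span contains Tnp1 on the reverse strand. It was at 209.6 and 209.2 CPM in LPS, 82.7 and 85.7 in LPS+DHEA+Nb, 208 and 218 in LPS+DHEA and 257 and 246 in CTRL. It fell from LPS by 1.31 on the log2 scale (SE 0.07, adjusted p = 8.34e-06) and was also lower than LPS+DHEA (-1.34) and CTRL (-1.58), so LPS+DHEA+Nb alone was low. Kxd1, a subunit of the lysosome-positioning BORC complex that overlaps Fkbp8 on the opposite strand, was at 96.9 and 94.8 CPM in LPS and 46.9 and 49.95 in LPS+DHEA+Nb (-0.98, SE 0.10, adjusted p = 0.00336), with CTRL at 47.9 and 57.9; Fkbp8 had a log2 fold change of -0.05. Gm28036, a readthrough gene over Nfs1, Cpne1 and Rbm12, had 543 and 787 counts in LPS and 27 and 57 in LPS+DHEA+Nb (-3.99, SE 0.37, adjusted p = 0.00336), while Cpne1 and Rbm12 had 0.74 and 0.59 and did not pass. Gm49380 had 12 and 3 counts in LPS and 1904 and 1776 in LPS+DHEA+Nb (7.91, SE 0.62, adjusted p = 0.00655), and Gm39325, which overlaps it on the same strand, had 2044 and 2088 in LPS and 66 and 27 in LPS+DHEA+Nb (-5.48, adjusted p = 0.79). CTRL replicate 1 had 34 counts for Gm49380 and 17 for Gm39325, and CTRL replicate 2 had 10 and 2294. The part of read assignment between them was not tested. Spcs1, a signal peptidase subunit whose span overlaps Glt8d1, rose from 138 and 136 CPM to 300.2 and 231 (0.95, SE 0.10, adjusted p = 0.00469), with the LPS+DHEA libraries up to 137 CPM and CTRL at 147 and 145. These genes other than Spcs1 were chosen for mention after their values were seen.

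Olfr273, an olfactory receptor gene, had the largest fall among called genes with counts in each library, from 121 and 208 counts in LPS to 5 and 4 in LPS+DHEA+Nb (log2 fold change -5.17, SE 0.49, adjusted p = 0.00224). Its call was lost in limma-voom (adjusted p = 0.166). In CPM Olfr273 was at 2.57 and 2.29 in LPS+DHEA and 0.0639 and 0.0313 in CTRL, so LPS and LPS+DHEA were high and the other 2 groups near 0. Gm6351 had 87 and 39 counts in LPS and none in either LPS+DHEA+Nb library, and was at least 21.1-fold lower against a floor of 3 counts per library. Gm15142 had no count in the LPS and LPS+DHEA libraries and 69 and 66 in LPS+DHEA+Nb, at least 22.2-fold higher by the same floor, and 1.02 and 0.844 CPM in CTRL. The calls of Gm6351 and Gm15142 were lost in limma-voom and with the 2 groups fitted alone. The other genes that fell were Galnt15, H6pd, Ldhd, Pdpn, Tmem176b, Gm8011, Gpc4 and Ddr1, by 0.69 to 2.43 on the log2 scale. All but Galnt15 were named after their values were seen. Each of the 8 lost its call in some setting that left out 1 library. Without LPS replicate 2 or LPS+DHEA+Nb replicate 2 the calls of Galnt15 (adjusted p 0.0897 to 0.0995) and Ldhd (0.0921 to 0.102) were lost, and H6pd lost its call without any 1 of the 4 libraries compared (0.0503 to 0.0657). Pdpn lost it without LPS replicate 1 or LPS+DHEA+Nb replicate 2 (0.0717 to 0.11) and Tmem176b without LPS replicate 2 or LPS+DHEA+Nb replicate 1 (0.086 to 0.11). Gm8011 lost it without LPS replicate 1, either LPS+DHEA library or LPS+DHEA+Nb replicate 2 (0.0605 to 0.11). Gpc4 lost it without any 1 library other than LPS+DHEA+Nb replicate 1 (0.0556 to 0.239) and Ddr1 without any 1 other than LPS replicate 1 (0.0623 to 0.26). The calls nearest to the threshold were Steap4, Gpc4 and Ddr1 (adjusted p 0.0439 to 0.0458), and those just outside it included Cxcl14 (0.0531) and H2-D1, Tgif2, 8030474K03Rik and Ms4a4a (0.0569).

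Set beside the other groups, LPS+DHEA+Nb differed from LPS+DHEA in 23 genes (0.0871% of those tested), 8 higher (0.0303%) and 15 lower (0.0568%). It differed from CTRL in 8 genes (0.0303%), 4 higher (0.0151%) and 4 lower (0.0151%). LPS differed from CTRL in 78 genes (0.295%), 68 higher (0.257%) and 10 lower (0.0379%). These comparisons share libraries with LPS+DHEA+Nb versus LPS, so each gene's values are given side by side and no overlap is counted. Scd2, Nupr1l, Arrb1 and Rbm44 were near their LPS+DHEA+Nb level already in LPS+DHEA (log2 differences of -0.08, 0.08, 0.01 and 0.06 between these groups, each with an adjusted p of 1). Cp, Lrg1, Lcn2, Ifitm2, Icam1, Acta2, Kxd1, Olfr273, 1700027A15Rik, Gm28036 and Gm6351 were lower in LPS+DHEA+Nb than in LPS+DHEA as well as in LPS. For 1700027A15Rik, Gm28036 and Gm6351 the LPS+DHEA+Nb level was also below CTRL (adjusted p = 2.61e-06, 0.0129 and 0.0129). Lpl, Ephx1, Spata6, Spcs1, Gm49380 and Gm15142 were higher in LPS+DHEA+Nb than in both LPS and LPS+DHEA. For Spcs1 and Gm49380 the difference from CTRL also passed (0.86 and 6.37, adjusted p = 0.0277 and 0.0337).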

How the data were processed

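RNA-seq was available for 8 testis libraries, 2 in each of 4 groups. The deposited values are estimated counts per gene, all whole numbers; the authors aligned with HISAT and counted with featureCounts 1.5.0-p3 on GRCm38, per the submitters' processing notes, with no strand setting stated. Multiples of 4 made up 33.5% of the values from 1 to 40 and 25.0% of those from 1000 to 10000, so dividing by 4 was tried; the planned test for counts was kept. Genes were filtered with filterByExpr (minimum count 10), scaled with TMM and fitted with edgeR 4.0.16 (R 4.3.3; quasi-likelihood, robust, 4 group means), and a gene was called at a Benjamini-Hochberg adjusted p under 0.05. The procedure was tested on simulated data. CPM are TMM-scaled, and SEs are those of the log2 fold change. Total counts were 61291062 to 64521795 per library. Alternatives used DESeq2 1.42.0, limma 3.58.1, other scalings and filters, 2 groups alone, a replicate block, and leaving out each library. Gene positions are from GENCODE (GRCm38) and promoters from RefSeq (GRCm38.p6). Members and lists were chosen with earlier results of these data known. Genes were named by rule: up to 15 called per direction by size with a mean of at least 1 CPM, up to 4 per list by p, and 16 fixed genes. The text uses part of these. Other genes given with values fall outside this rule, and their choice followed no stated rule. Among them are Saa1, Saa2, Hp, Ncoa4, Marco, Adgre1, Mrc1, Col1a1, Col3a1, Cyp11a1, Nr5a1, Scd1 and Rhox5. Results for a few genes are not reported here.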

Additional observations from a re-analysis of the deposited data

How the results depend on the processing

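No called gene changed direction under the alternatives run, whereas Adgrg2 (log2 fold change -1.14 to 0.50) and Tlr4 (-1.09 to 0.24), which did not pass, took both signs. Of the 45 genes called in LPS+DHEA+Nb versus LPS, 11 (Nupr1l, Lrg1, Scd2, Cp, Acta2, 1700027A15Rik, Ifitm2, Kxd1, Gm28036, Tgm2 and Gm49380) kept their call under all 17 alternatives that left the threshold at 0.05. The number called was 87 without a filter on low counts (19 higher, 68 lower), 207 with DESeq2 (55 higher, 152 lower), 19 with the 2 groups fitted alone (7 higher, 12 lower), which leaves fewer samples, and 69 at an adjusted p under 0.10 (55 lower); 43, 45 and 12 of the 45 were among the first 3 of these. Leaving out 1 library gave 43 to 88 genes (12 to 29 higher, 28 to 61 lower), with 74 without LPS replicate 1 and 88 without LPS+DHEA+Nb replicate 1; the cause was not tested. For LPS+DHEA+Nb versus LPS+DHEA (23 genes) the counts were 42 without a filter, 113 with DESeq2, 40 with 2 groups alone and 16 to 64 with 1 library left out. For LPS+DHEA+Nb versus CTRL (8 genes) they were 17, 71 with DESeq2, and 8 to 37 with 1 library left out. For LPS versus CTRL (78 genes) they were 140, 283 with DESeq2, 122 at 0.10, and 66 to 118 with 1 library left out. The replicate numbers in the labels are not said to pair libraries. Deviations from the group mean had a correlation of 0.031 between LPS+DHEA+Nb replicate 1 and LPS replicate 1, and pairing with the other groups was not checked. With the replicate block the 4 comparisons gave 47, 16, 8 and 62 genes, and Cd209f, Saa3, Serpina3n, Csf2rb and Ddr1 were not called in the first. The median log2 fold change of all genes, 0.0024, was 0.0026 with DESeq2 size factors and -0.0023 with library size alone. Depth limits genes with few counts, such as Adgrg2 and Tnf.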

Other observations

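Some gene groups outside the comparisons above are given as values. The alpha globin Hba-a1, a marker of red blood cells, was at 7.92 and 4.05 CPM in LPS, 12.1 and 12.6 in LPS+DHEA+Nb, 22.8 and 8.13 in LPS+DHEA and 17.0 and 9.88 in CTRL (log2 fold change from LPS 1.04, SE 0.64, adjusted p = 0.88 in edgeR). The beta globin Hbb-bs was at 4.72 and 2.25 CPM in LPS and 6.56 and 8.00 in LPS+DHEA+Nb (1.06, SE 0.61, adjusted p = 0.866). Among mitochondrially encoded genes, mt-Nd3, a subunit of respiratory complex I, was at 51.2 and 48.6 CPM in LPS and 68.0 and 66.2 in LPS+DHEA+Nb (0.43, SE 0.13, adjusted p = 0.481), and mt-Co3, a subunit of cytochrome c oxidase, at 732 and 709.9 and at 910.1 and 880.7 (0.31, SE 0.08, adjusted p = 0.323).

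Of 25 immediate early genes, which respond within minutes to many stimuli including tissue handling, edgeR called 0 in LPS+DHEA+Nb versus LPS, DESeq2 called 2, and 10 had an unadjusted p under 0.05; the median log2 fold change was -0.21. Of 29 genes of Wnt signalling and 18 circadian clock genes, edgeR and DESeq2 called 0, and 0 and 1 had an unadjusted p under 0.05.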
